A study of Mus musculus with 13 samples.

Results

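The transcripts of 9 genes were followed in mouse liver: the angiopoietin-like genes Angptl1, Angptl2, Angptl4, Angptl6 and Angptl8, the vascular lipase genes Lpl, Lipc and Lipg, and Gpihbp1, which encodes the anchor of lipoprotein lipase on capillaries. The genes were chosen by symbol, with their measured differences between the 3 groups of these livers already known, and all 9 were found among the 22048 genes of the count table. Those differences are therefore given as a description. Where the fit over all genes put one at an adjusted p under 0.05 it is called, a label that serves only to set the gene beside all others and that supports nothing. The samples were 13 whole mouse livers: 6 controls that kept their hepatic stellate cells (3 male, 3 female), 4 livers in which these cells had been depleted (1 male, 3 female), and 3 livers that kept them and were taken 72 h after partial hepatectomy (2 male, 1 female). The sources used here give no strain, age or means of depletion, and do not say whether controls had a sham operation or a vehicle. Each liver is named below by its group and replicate number, and its sex is a term in every comparison of groups.

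Lipoprotein lipase, encoded by Lpl, cuts triglyceride out of chylomicrons and very low density lipoprotein on the capillary wall, where GPIHBP1 holds it. Hepatic lipase (Lipc) and endothelial lipase (Lipg) belong to the same family and act mainly on lipoprotein remnants and on high density lipoprotein phospholipid. ANGPTL4, induced by fasting, and ANGPTL8, induced by feeding and insulin, restrain lipoprotein lipase. ANGPTL1, ANGPTL2 and ANGPTL6 share the coiled-coil and fibrinogen-like build of the family but are known for roles in vessels, inflammation and energy use rather than as lipase inhibitors. In adult liver, hepatic lipase is made by hepatocytes and Gpihbp1 by endothelial cells, while Lpl is low in hepatocytes and is made by resident macrophages.

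Library totals ran from 35360991 to 51008737 counts, so that 3 counts, taken as the detection floor, corresponded to 0.0524 to 0.0900 CPM (read counts brought to a common library size with TMM factors). The summed level of 12 stellate cell markers lay between 223.7 and 637.8 CPM in controls, between 6.36 and 54.8 CPM in depleted livers and between 280.3 and 487.1 CPM after hepatectomy. The 4 depleted livers were not alike: depleted 4 held the 54.8 CPM, and the other 3 held at most 9.68 CPM. Depleted 4, labelled female, also had 73 counts on Y-linked genes, against 0 to 2 in the other 6 females and 4051 to 7741 in males. Whether its reads include some of another library was not tested, which bears on its stellate markers and on its values below. Control 6 and hepatectomy 2 stood apart by low levels of 10 sinusoidal endothelial markers (129.5 and 150.1 CPM, against 425 to 612.6 CPM in the other controls) and of 7 Kupffer cell markers (53.4 and 60.7 CPM). Control 6 was the lowest control in all 8 cell type lists, hepatocyte (63720 CPM) and stellate (223.7 CPM) included. For results that move with these 3 livers, values without them are given too. Hepatocyte markers were high in every liver, at 63720 to 169000 CPM summed over 6 genes.

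Levels of different genes were compared per transcript length, as TPM, in which the gene length is divided out. In controls Lipc was the most abundant of the 9, at 306.9 ± 61.6 TPM (SD, n = 6), and its range lay above that of Angptl8 (104.4 ± 60.8 TPM). Angptl8 and Angptl4 (58.4 ± 18.2 TPM) overlapped. Below them came Angptl6 (20.2 ± 5.80 TPM), Gpihbp1 (16.3 ± 6.60 TPM), Lipg (12.6 ± 3.95 TPM), Lpl (12.1 ± 2.20 TPM) and Angptl2 (8.83 ± 3.05 TPM), each of which overlapped its neighbour in the order. Angptl1 was near the floor, at 0.155 ± 0.135 TPM. The gaps in the control order that no liver bridged were therefore those below Lipc, below Angptl4 and above Angptl1. In depleted livers the order ran Angptl8, Lipc, Angptl4, Lpl, Gpihbp1, Lipg, Angptl6, Angptl2, Angptl1, and only the steps from Gpihbp1 to Lipg and from Angptl6 to Angptl2 were free of overlap. After hepatectomy Angptl4 stood first at 148.6 ± 11.0 TPM (n = 3), overlapping Lipc at 127.3 ± 92.1 TPM.

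**Figure D1:**
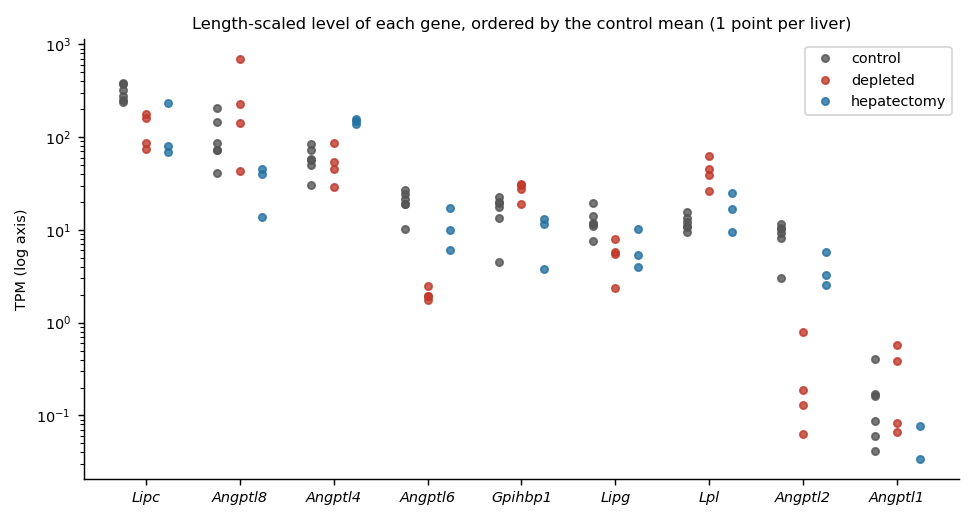
Length-scaled level (TPM, log axis) of the 9 genes in every liver, ordered by the control mean, with controls in grey, depleted livers in red and hepatectomised livers in blue. Lipc leads in controls at 306.9 TPM on average, Angptl1 has the lowest mean in all 3 groups, and the hepatectomised liver with 0 reads of Angptl1 cannot be drawn on a log axis.

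Among the lipases, Lpl was the 1 member that was higher in depleted than in control livers with no overlap. The gene lies on chromosome 8 (68880491 to 68907448, plus strand, GRCm38). Its level in controls ran from 28.2 to 40.1 CPM with a median of 36.7 CPM. In depleted livers 1 to 4 it was 99.9, 72.3, 116 and 159 CPM. Every depleted liver therefore lay above every control, with depleted 4 the highest. The fitted difference was 1.63 ± 0.26 on the log2 scale (estimate ± SE), a 3.09-fold higher level. After hepatectomy Lpl was 61.7, 33.2 and 86.9 CPM in livers 1 to 3, with hepatectomy 2 inside the control range and the other 2 above it. That difference from control was 0.79 ± 0.27 and was not called. It was 0.43 without hepatectomy 3, and it was called at 1.08 without hepatectomy 2 and at 1.11 with control 6, depleted 4 and hepatectomy 2 left out.

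The summed markers of monocytes and macrophages were also higher in the depleted livers. The summed level of 12 monocyte and macrophage markers was 106.3 to 259.4 CPM in controls, 601.9 to 1052 CPM in depleted livers and 167.8 to 342.9 CPM after hepatectomy. Among the 9 livers of the other groups, hepatectomy 3 had the highest Lpl (86.9 CPM) with 186.1 CPM of these markers, inside the control range, and control 6 had the lowest marker sum (106.3 CPM) with 38.5 CPM of Lpl. Hepatectomy 1 had the highest marker sum of the 9 (342.9 CPM) with 61.7 CPM of Lpl, above every control. Of these 12, 9 were higher in depleted livers at an adjusted p under 0.05 (edgeR's quasi-likelihood test), against 18.9% of all genes. Trem2 (0.26 ± 0.88 on the log2 scale), Gpnmb (1.65 ± 1.25) and Spp1 (-0.17 ± 0.24) did not pass. Of 7 Kupffer cell markers 4 were higher (Timd4, Marco, Adgre1 and Cd163). Clec4f (-3.00 ± 1.26 on the log2 scale), Vsig4 (-0.88 ± 0.60) and Cd5l (1.49 ± 0.59) did not pass. Their adjusted p was 0.0872, 0.287 and 0.0714 (edgeR). Adipocytes are another source of Lpl, and the 6 adipocyte markers summed to 4.86 to 7.19 CPM in controls and to 23.8 to 37.0 CPM in depleted livers. Almost all of that was Fabp4, which macrophages and capillary endothelium also express, at 31.8 CPM on average in depleted livers. Of the other 5, Adipoq and Lep had no read in any depleted liver, and Plin1, Cfd and Retn had at most 1, 1 and 3. In controls Plin1, Retn and Lep had none, Adipoq at most 9 and Cfd at most 5. The part of macrophages or adipocytes in the Lpl level was not tested.

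Lipc went the other way. Its counted exons span 70798129 to 70934808 on chromosome 9 (minus strand, GRCm38), while the annotated gene reaches to 70952226. Controls held 208.5 to 306.7 CPM, with a median of 240.6 CPM. The 4 depleted livers had 115, 68.6, 52.6 and 127 CPM, all below the lowest control. The fitted difference was -1.72 ± 0.25 on the log2 scale, a 3.30-fold lower level. After hepatectomy the 2 males had 83.9 and 67.1 CPM and the female had 230.3 CPM. The males lay far below every control, and the female lay within the control range. Their joint difference from control, -1.02 ± 0.26 or 2.02-fold lower, rested on single libraries: it ranged from -1.45 to -0.80 on leaving out any 1 library, and it was no longer called without control 1, 2, 3 or 6, or without hepatectomy 1 or 2. With the 3 livers that stood apart left out it was -0.75, with the replicate number as a block -1.06, and in females alone -0.25, none of them called. Hepatocyte markers, whose cells make Lipc, held 64230 to 163500 CPM in depleted livers against 63720 to 135300 CPM in controls, with 0 of 6 past the threshold with edgeR, DESeq2 or limma-voom and 1 at an unadjusted p under 0.05 (edgeR).

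Lipg, whose product works on high density lipoprotein phospholipid, was the third lipase (chromosome 18, 74939322 to 74961263, minus strand, GRCm38). In controls it ran from 12.3 to 29.6 CPM with a median of 19.4 CPM. Depleted livers 1 to 4 had 7.84, 12.5, 3.30 and 8.24 CPM. Depleted 2 reached just into the control range and the other 3 lay below it. The difference was -1.64 ± 0.30 on the log2 scale, or 3.11-fold lower. Hepatectomised livers had 11.0, 7.78 and 19.9 CPM, with the female again the highest, and differed from control by -0.62 ± 0.30, or -0.31 without the 3 livers that stood apart.

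The opposite directions of Lpl and Lipc can also be given as 1 value per liver, which restates the levels above and is no further evidence. The TPM ratio of Lpl to Lipc lay between 0.0322 and 0.0486 in the 6 controls. It was 0.246, 0.297, 0.619 and 0.353 in depleted livers 1 to 4. After hepatectomy it was 0.207, 0.139 and 0.106. The 3 groups did not overlap, with depleted livers highest and controls lowest.

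**Figure D2:**
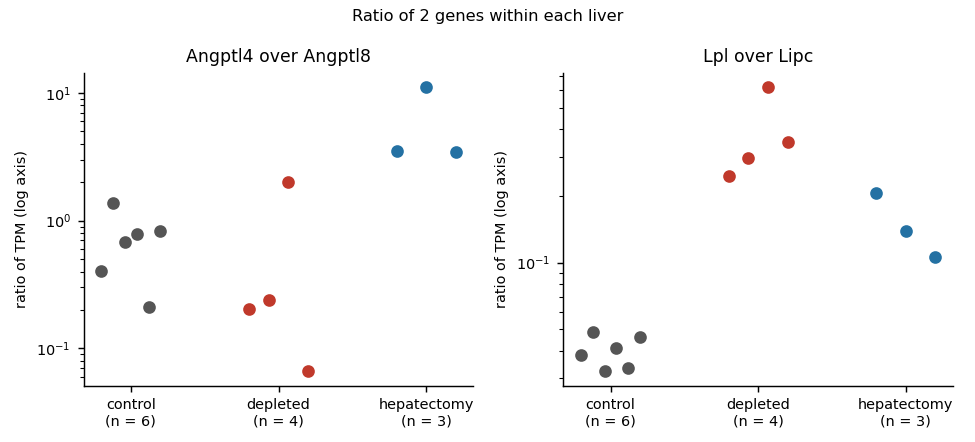
Ratio of length-scaled levels (TPM, log axes) of Angptl4 to Angptl8 and of Lpl to Lipc, 1 point per liver. The Lpl to Lipc ratio is at most 0.0486 in controls and at least 0.246 in depleted livers, and the Angptl4 to Angptl8 ratio is at least 3.43 after hepatectomy against at most 1.38 in controls.

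Gpihbp1, which encodes the endothelial anchor, lies on chromosome 15 (75596628 to 75599481, plus strand, GRCm38). Controls ran from 5.82 to 24.9 CPM with a median of 19.9 CPM, and the lowest value was that of control 6. Depleted livers 1 to 4 had 28.8, 28.7, 29.9 and 18.1 CPM. Livers 1 to 3 sat together above every control and depleted 4 fell back among the controls. The difference was 0.56 ± 0.40 on the log2 scale, 0.37 without depleted 3, and 0.56 and called without the 3 livers that stood apart, a set chosen after the data were seen. Hepatectomised livers had 18.1, 4.97 and 15.3 CPM and differed from control by -0.42 ± 0.45. That value rested on single livers, at -0.86 without hepatectomy 1, -0.06 without hepatectomy 2 and -0.26 without the 3 livers that stood apart. All 4 depleted livers lay above all 3 hepatectomised ones, although depleted 4 and hepatectomy 1 were nearly level. The low livers of this gene were also the low livers of the sinusoidal endothelial markers: control 6 at 129.5 CPM, hepatectomy 2 at 150.1 CPM and, among depleted livers, depleted 4 at 308 CPM. Of those 10 markers only Pecam1 was higher and only Ehd3 lower in depleted livers (adjusted p = 0.0187 and 0.0430, edgeR). The part of endothelial content in the Gpihbp1 level was not tested.

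**Figure D3:**
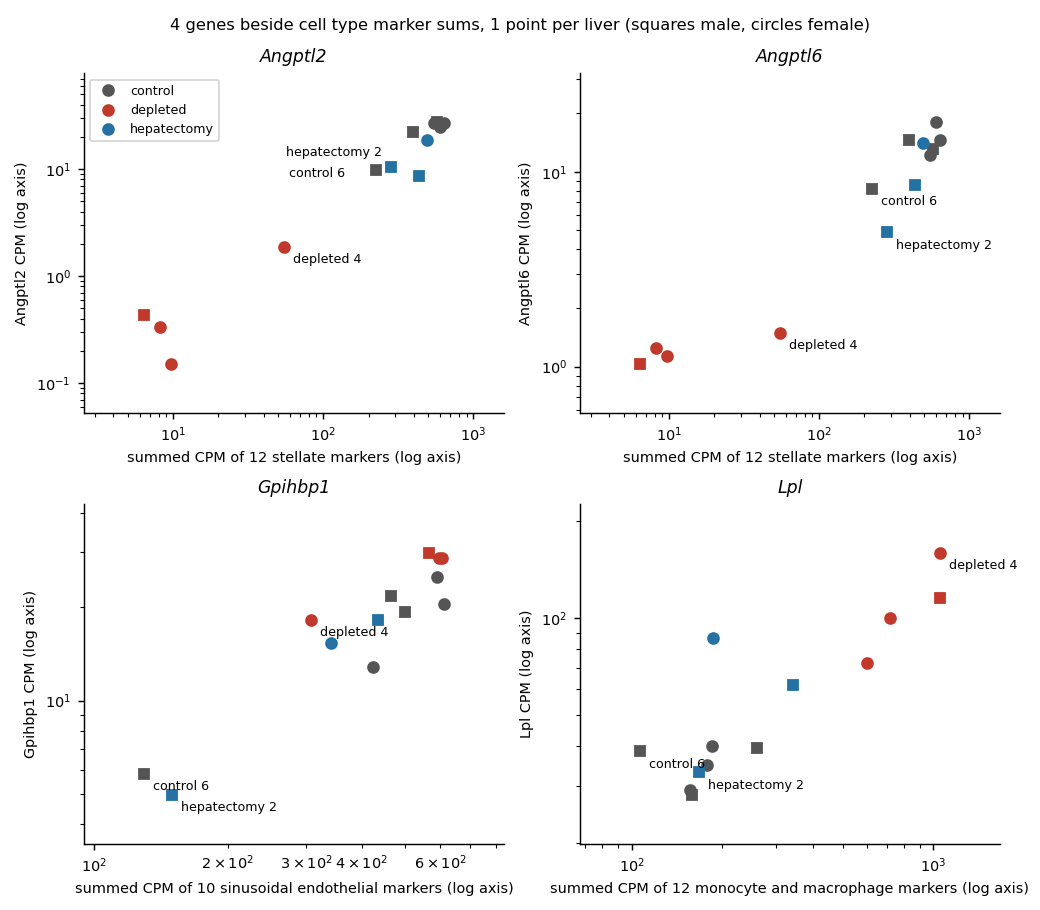
Level of 4 genes (CPM, log axes) against the summed CPM of a marker list, 1 point per liver, squares for males and circles for females, with the 3 livers that stand apart named. Depleted livers sit at the low end of the stellate marker axis with the lowest Angptl2 and Angptl6, control 6 and hepatectomy 2 have the lowest endothelial sums and the lowest Gpihbp1, and depleted livers have the highest macrophage sums.

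Of the lipase inhibitors, Angptl4 stood out after hepatectomy and not after depletion. The gene lies on chromosome 17 (33773750 to 33781830, minus strand, GRCm38). Its control range was 40.4 to 121 CPM with a median of 75.7 CPM. Hepatectomised livers 1 to 3 had 283.7, 253.3 and 231.1 CPM. All 3 lay far above the controls, and the spread between them was small. The difference was 1.57 ± 0.24 on the log2 scale, a 2.96-fold higher level, and stayed between 1.32 and 1.69 on leaving out any 1 library. In females alone, where 1 hepatectomised liver was set against 3 controls, it was 1.94 and was not called. Depleted livers had 35.2, 73.1, 106.5 and 56.0 CPM, with depleted 1 below every control and the others inside the control range. The difference was -0.13 ± 0.23, and 0.03 without depleted 1. Of 8 mesothelial and portal fibroblast markers 6 were higher after hepatectomy (edgeR), against 6.06% of all genes. The 8 summed to 28.3 to 75.1 CPM there, to 24.5 to 37.5 CPM in depleted livers and to 8.67 to 18.3 CPM in controls. The part of such cells in the Angptl4 level was not tested.

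Angptl8 (chromosome 9, 21835510 to 21837347, plus strand, GRCm38) varied widely from liver to liver. Controls ran from 15.3 to 77.3 CPM with a median of 32.6 CPM. Depleted livers 1 to 4 had 45.4, 80.3, 13.9 and 223 CPM. Depleted 4 was by far the highest of all livers, while the depleted male lay below every control. The difference of 1.00 ± 0.77 on the log2 scale came mostly from that liver, since it was 0.13 without depleted 4 and 1.67 without depleted 3. Hepatectomised livers had 21.4, 6.04 and 17.7 CPM, from below the lowest control to inside the control range, with a difference of -1.34 ± 0.77. It was -0.80 without control 1 and -1.91 without hepatectomy 1. The TPM ratio of Angptl4 to Angptl8 was 0.211 to 1.38 in controls, 0.0660 to 2.02 in depleted livers, and 3.49, 11.0 and 3.43 after hepatectomy. All 3 hepatectomised livers lay above the control range. Depleted 1 and 4 lay below that range, depleted 2 inside it and depleted 3 above it.

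**Figure D4:**
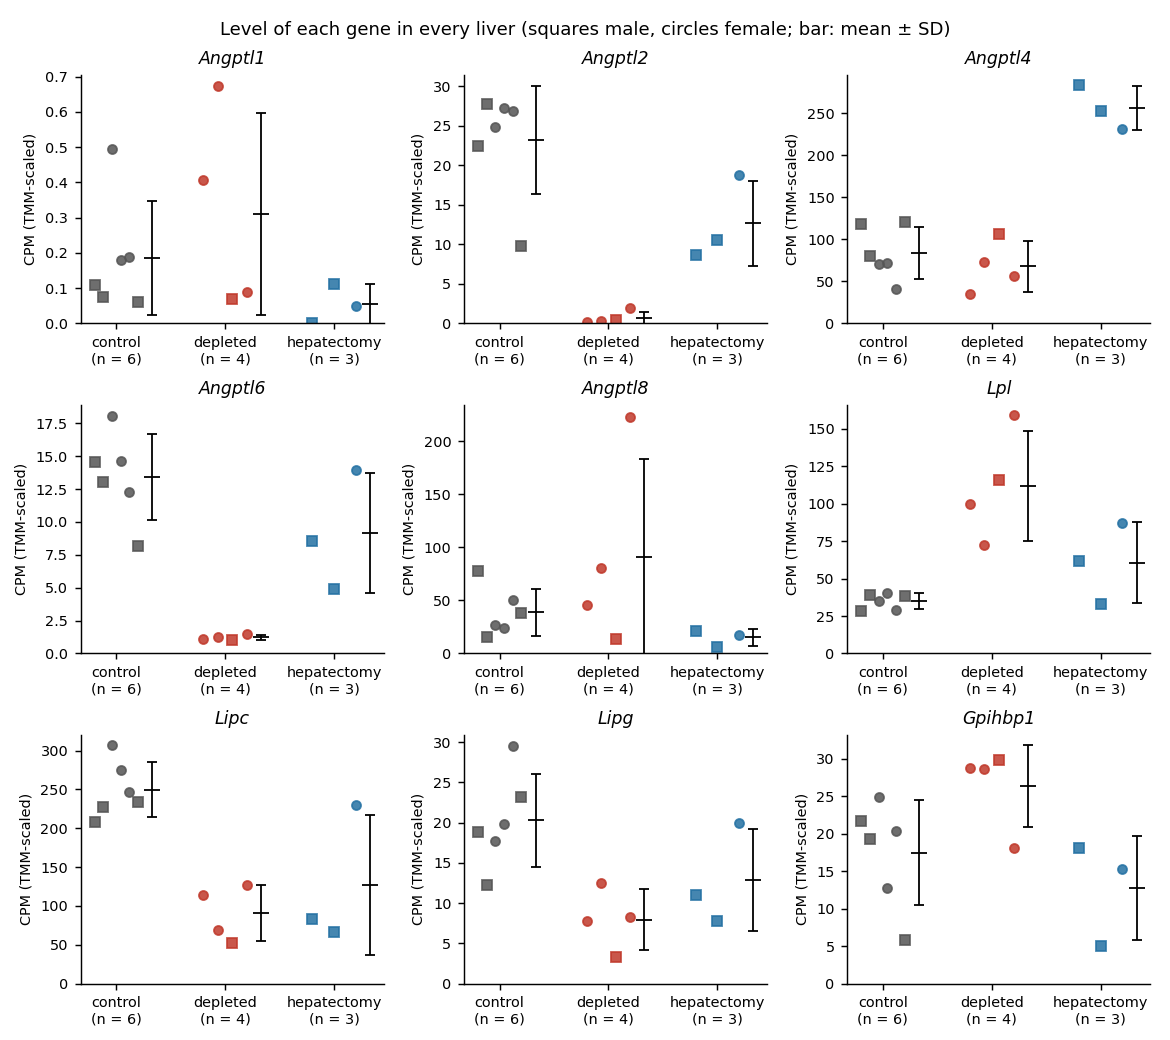
Level of each of the 9 genes (CPM) in every liver, squares for males and circles for females, with the mean ± SD of each group drawn beside its points (bars are cut at 0). Angptl2 and Angptl6 are lowest in the 4 depleted livers, Lpl has its highest mean there, and Angptl4 is highest in the 3 hepatectomised livers.

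Angptl2 and Angptl6, which like Angptl1 are not known as lipase inhibitors, had the largest differences of the 9 in depleted livers. The starts of these genes are shown beside that of Lipc because these 3 were the members whose depleted livers all lay below the controls. Each line gives 230 bases that end 21 bases before the RefSeq start (GRCm38.p6), 5′ to 3′ on the strand of the gene, for Angptl2 at chr2:33215711-33215940 (plus strand), Angptl6 at chr9:20879731-20879960 (minus strand) and Lipc at chr9:70934829-70935058 (minus strand), and capitals mark matches to the letters named after them.
Angptl2: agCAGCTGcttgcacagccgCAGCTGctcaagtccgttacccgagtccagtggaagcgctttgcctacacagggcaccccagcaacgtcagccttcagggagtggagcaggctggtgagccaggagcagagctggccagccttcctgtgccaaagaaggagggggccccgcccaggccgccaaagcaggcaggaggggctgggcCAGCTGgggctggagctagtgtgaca
Angptl6: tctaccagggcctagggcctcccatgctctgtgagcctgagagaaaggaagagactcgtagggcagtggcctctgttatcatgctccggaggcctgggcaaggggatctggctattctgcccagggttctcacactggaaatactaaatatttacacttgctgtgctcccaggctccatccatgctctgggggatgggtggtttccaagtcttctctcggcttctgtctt
Lipc: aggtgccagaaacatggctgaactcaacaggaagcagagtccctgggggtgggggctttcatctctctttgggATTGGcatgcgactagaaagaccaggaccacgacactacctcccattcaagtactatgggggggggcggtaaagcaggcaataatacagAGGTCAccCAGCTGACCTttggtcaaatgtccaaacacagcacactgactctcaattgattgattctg
The letters searched on both strands were CAGCTG (an E-box), AGGTCA (a nuclear receptor half-site) and CCAAT (the CCAAT box). The Angptl2 window held CAGCTG 3 times, the Angptl6 window held none of the 3 strings, and the Lipc window held CAGCTG 1 time, AGGTCA 2 times and CCAAT 1 time, with CAGCTG and 1 AGGTCA match overlapping. Of 32817 RefSeq windows of this length, 11.8% held CAGCTG, 13.1% held AGGTCA and 32.2% held CCAAT, and 0.0945% held CAGCTG 3 times or more. These are matches of letters only. No string searched was in all 3 windows, while CAGCTG was in those of Angptl2 and Lipc.

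Angptl2 lies on chromosome 2 (33216069 to 33247717, plus strand, GRCm38) and Angptl6 on chromosome 9 (20873808 to 20879727, minus strand). Angptl2 in controls ran from 9.81 to 27.8 CPM with a median of 25.8 CPM, control 6 being the lowest. In depleted livers 1 to 4 it was 0.150, 0.336, 0.437 and 1.87 CPM, or 7, 15, 25 and 84 reads. The depleted livers lay well below every control, and depleted 4 again lay nearest to them. The difference was -5.23 ± 0.61 on the log2 scale, a 37.5-fold lower level, and -6.35 with the 3 livers that stood apart left out. Hepatectomised livers had 8.64, 10.6 and 18.7 CPM, of which hepatectomy 1 lay below every control, with a difference of -0.82 ± 0.52.

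For Angptl6, controls ran from 8.16 to 18.1 CPM with a median of 13.8 CPM. Depleted livers 1 to 4 had 1.14, 1.25, 1.03 and 1.49 CPM. The 4 values were close together and far below the controls. The difference was -3.57 ± 0.27 on the log2 scale, or 11.9-fold lower. Hepatectomised livers had 8.55, 4.88 and 14.0 CPM and a difference of -0.53 ± 0.25. Hepatectomy 2 lay below every control and the other 2 inside the control range. The difference was -0.28 without hepatectomy 2, -0.82 without hepatectomy 3 and -0.09 in females alone. All 12 stellate markers were lower in depleted livers at an adjusted p under 0.05 (edgeR's quasi-likelihood test), with a median log2 difference of -5.55. DESeq2 called 10 of the 12 lower there and limma-voom all 12. After hepatectomy 0 of the 12 passed with edgeR, DESeq2 or limma-voom, or at an unadjusted p under 0.05 (edgeR). In whole liver, fewer cells of a type and less RNA per cell cannot be told apart. The part of the stellate cells in the Angptl2 and Angptl6 levels was not tested.

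Angptl1 (chromosome 1, 156838562 to 156861078, plus strand, GRCm38) was scarcely detected. Controls gave 2 to 21 reads per liver, and depleted livers 1 to 4 gave 19, 30, 4 and 4. Hepatectomised livers gave 0, 4 and 2 reads, at a floor of 3. At so few reads the differences were loosely set, at 0.36 ± 0.68 for depletion, -1.24 ± 0.96 for hepatectomy and 1.59 ± 1.02 for depleted against hepatectomised livers on the log2 scale, none of them called. With 1 library left out, in the fits whose low-count filter kept the gene, they ran from 0.20 to 0.67, from -2.83 to -0.34 and from 0.62 to 3.09, with the ends of the last 2 ranges set by leaving out hepatectomy 2 or hepatectomy 3. Without the 3 livers that stood apart, the last was 3.44 and was called. Of the 9 members, 5 overlap an annotated gene on the other strand: Angptl1 with Ralgps2, Angptl2 with Ralgps1, Angptl6 with A230050P20Rik, Lipc with the noncoding Gm3436 and Gm32017, and Angptl8, which lies within Dock6. The kit keeps strand, but the sources used here do not say whether the counting used it, so reads of those partners may be among the counts of these members.

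As counts, 5 of the 9 members were called between depleted and control livers, 1 higher (Lpl) and 4 lower (Angptl2, Angptl6, Lipc and Lipg). Over all 13831 genes tested, 33.9% were called (18.9% higher, 15.0% lower), so a call was common there. Between hepatectomised and control livers 2 of 9 were called (Angptl4 higher, Lipc lower) against 8.42% of all genes (6.06% higher, 2.36% lower). Set directly against hepatectomised livers, depleted livers were lower in 4 of 9 (Angptl2 at -4.41 ± 0.63, Angptl4 at -1.70 ± 0.28, Angptl6 at -3.04 ± 0.29 and Lipg at -1.02 ± 0.33 on the log2 scale) against 23.4% of all genes called in either direction and 10.1% lower. Without control 6, depleted 4 and hepatectomy 2 this comparison also called Lipc, which moved from -0.71 ± 0.28 to -1.03, and Gpihbp1, which moved from 0.98 ± 0.49 to 0.82, beside Angptl1 as given above. Lipc was also called without depleted 4 or without hepatectomy 2, and Gpihbp1 with the replicate number as a block (1.27). Angptl8, at 2.35 ± 0.94, was not called, and it fell to 1.17 without the 3 livers. It was called with no sex term (2.59), with DESeq2 (2.34) and without depleted 3 (3.03). Lpl, at 0.84 ± 0.31, was not called, and it fell to 0.37 without the 3 livers. It was called with no sex term (0.88), with scaling by library size alone (1.19), with DESeq2 (0.84), without depleted 2 and without hepatectomy 3 (1.25). The median log2 difference of the members was -0.13, -0.62 and -0.71 in the 3 comparisons, and that of all genes was -0.03, -0.02 and -0.05. Ranges without overlap were found for 4 of 9 members between depleted and control livers (28.4% of all genes), 1 of 9 between hepatectomised and control livers (13.7%) and 4 of 9 between depleted and hepatectomised livers (34.0%). Since the members were listed with these comparisons known, nothing is read from the counts. The first 2 comparisons share the controls. Of the 11 calls, 8 held in every alternative run, and the other 3 were Angptl4 and Lipc after hepatectomy and Lipg between depleted and hepatectomised livers. Of 23 alternatives, the call of Angptl4 ended in 1 (females alone) and that of Lipc in 10. That of Lipg ended in 10, 7 of them with 1 library left out (control 2 or 5, depleted 1, 3 or 4, hepatectomy 1 or 3).

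**Figure D5:**
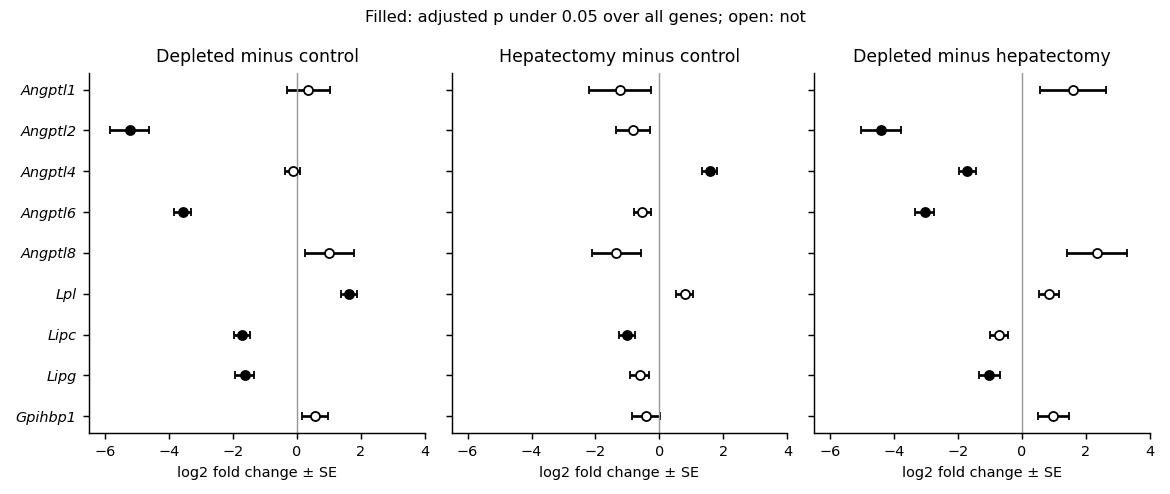
Fitted log2 difference with its SE for the 9 genes in depleted against control, hepatectomised against control and depleted against hepatectomised livers, with filled points where the adjusted p over all genes was under 0.05. Angptl2 has the largest difference, at -5.23, in depleted livers, and Angptl4 the largest that was called, at 1.57, after hepatectomy.

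Sex, which the choice of genes did not use, was tested in the 6 controls. Angptl4 was 79.8 to 121 CPM in the 3 males and 40.4 to 71.5 CPM in the 3 females, with no overlap. The difference between males and females was 0.80 ± 0.25 on the log2 scale (adjusted p = 0.271, edgeR's quasi-likelihood test over 13005 genes). Lipc was lower in every male control (208.5 to 234.4 CPM) than in any female control (246.9 to 306.7 CPM), by -0.31 ± 0.14 (adjusted p = 0.399, edgeR). None of the 8 members tested passed the adjusted threshold with edgeR, DESeq2 or limma-voom, while 1 of 8 had an unadjusted p under 0.05 in each of these tools. Of all genes, 0.738% passed with edgeR, and 13.2% had an unadjusted p under 0.05. Angptl1, which did not pass the low-count filter there, had 0.0804 CPM in males and 0.288 CPM in females on average.

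With the group means taken out, the same question could be asked over all 13 livers. Lipc was lower in males by -0.79 ± 0.21 on the log2 scale (adjusted p = 0.131, edgeR), Lipg by -0.77 ± 0.25 (adjusted p = 0.229, edgeR), and Angptl4 was higher by 0.71 ± 0.20 (adjusted p = 0.170, edgeR). None of the 9 passed the adjusted threshold with edgeR, against 1.03% of all genes, and 5 had an unadjusted p under 0.05 (Angptl1, Angptl4, Angptl6, Lipc and Lipg), as had 1666 of all 13831 genes. DESeq2 called 1 of the 9, Lipc (adjusted p = 0.0150), and 410 of all 13831 genes. Whether the group differences themselves depended on sex was asked with interaction terms, added after the data had been seen. None of the 9 passed for depletion (0.0217% of all genes) or for hepatectomy (0.00%) with edgeR, and the unadjusted p was under 0.05 for Angptl8 and Lipg in the first and for Lipc in the second, against 3.47% and 7.23% of all genes. The depleted group held 1 male and the hepatectomised group 1 female, which limits both tests.

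Genes around the lipases were taken from 5 lists, which were chosen with earlier results of these data known. Within a list, genes were named by the size of their called difference. Adjusted p-values given for them therefore only describe. Counts in each list stand against the shares of all genes called. Those were 18.9% higher and 15.0% lower in depleted livers, and 6.06% higher and 2.36% lower after hepatectomy. Of 23 genes of lipase maturation and lipoprotein processing, 1 rose and 7 fell in depleted livers, and 3 fell without depleted 1 or without depleted 3, 1 in females alone and 4 with scaling by library size alone. Sorl1, a sorting receptor that binds lipoprotein lipase, rose by 2.86 ± 0.32 on the log2 scale (adjusted p = 3.86e-05, edgeR), from 2.20 to 16.3 CPM. Apoe, the remnant ligand, fell by 0.77 ± 0.18 (adjusted p = 0.00536, edgeR). Vldlr, a receptor for triglyceride-rich particles, fell by 2.11 ± 0.53 (adjusted p = 0.00808, edgeR). It ran from 0.540 to 26.4 CPM in controls and from 0.227 to 8.65 CPM in depleted livers. With no sex term Vldlr was at -1.48 and did not pass (adjusted p = 0.448, edgeR). Apoc1, an inhibitor of lipoprotein clearance, fell by 0.75 ± 0.22 (adjusted p = 0.0179, edgeR). It did not pass without depleted 1 or without depleted 3, with an adjusted p of up to 0.101. After hepatectomy 4 rose and 1 fell, and 2 rose and 0 fell without hepatectomy 2. Lsr, the lipolysis-stimulated receptor, rose by 0.85 ± 0.15 (adjusted p = 0.00629, edgeR) and did so whichever library was left out. Apoc2, the activator of lipoprotein lipase, rose by 0.96 ± 0.24, Lmf2, a relative of the lipase maturation factor, rose by 0.72 ± 0.15, and Sort1, a sorting receptor, fell by 0.90 ± 0.21 (adjusted p = 0.0277, 0.0133 and 0.0226, edgeR). Leaving out 1 library ended the call of Apoc2 in 6 of 13 cases, of Sort1 in 4 and of Lmf2 in 1 (hepatectomy 2). Their adjusted p then reached up to 0.0957, 0.0903 and 0.0640 (edgeR). In depleted livers Apoc2, not among the 4 genes named there, differed by -0.75 ± 0.24 (adjusted p = 0.0266, edgeR). The median log2 difference of the list was -0.17 after depletion and 0.19 after hepatectomy.

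Of 17 genes of fasting and of the fatty acid receptor PPAR-alpha, which also drives Angptl4, none rose and 8 fell in depleted livers, with a list median of -0.68 on the log2 scale against -0.03 for all genes. At an unadjusted p under 0.05, 1 was higher and 11 lower (edgeR), and DESeq2 called 1 higher and 9 lower. Over all genes, 22.8% were higher and 20.8% lower at that unadjusted p, and DESeq2 called 20.6% higher and 17.0% lower. Ppara itself fell by 1.45 ± 0.29, Ehhadh of peroxisomal oxidation by 1.51 ± 0.16, Cpt1a, which admits fatty acids to mitochondria, by 0.91 ± 0.20, and the thioesterase Acot1 by 2.16 ± 0.58 (adjusted p = 0.00190, 2.37e-05, 0.00352 and 0.0119, edgeR's quasi-likelihood test). With the 3 livers that stood apart left out, Acot1 was at -2.09 and did not pass (adjusted p = 0.0597), while 7 of the 17 were called lower. After hepatectomy 2 rose and none fell with edgeR, with a list median of 0.46, while 7 were higher and 1 lower at an unadjusted p under 0.05 and DESeq2 called 4 higher and 0 lower. Over all genes those shares were 13.3% and 11.0% at the unadjusted p, and 8.63% and 5.39% with DESeq2. Pdk4, a brake on glucose oxidation, rose by 2.77 ± 0.63 and Plin5, a lipid droplet protein, by 2.23 ± 0.38 (adjusted p = 0.0201 and 0.00553, edgeR). Pdk4 did not pass without control 2, hepatectomy 2 or hepatectomy 3 (adjusted p of up to 0.100), and the list then had 1 call.

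Of 15 insulin-driven and lipogenic genes, the setting in which Angptl8 is induced, none rose and 4 fell in depleted livers with edgeR, while 1 was higher and 5 lower at an unadjusted p under 0.05 and DESeq2 called 1 higher and 5 lower. The log2 differences were -1.74 ± 0.32 for Irs1, an insulin receptor substrate, -1.22 ± 0.21 for Me1, the malic enzyme, -0.85 ± 0.25 for Srebf1, the lipogenic transcription factor, and -2.66 ± 0.85 for Scd1, the stearoyl desaturase (adjusted p = 0.00114, 0.000835, 0.0171 and 0.0294, edgeR). Srebf1 did not pass without control 5 or depleted 3, nor Scd1 without control 3 or without depleted 1, 2 or 3 (adjusted p of up to 0.116 and 0.120), and 2 of the 4 calls were left without depleted 3. After hepatectomy Srebf1 fell by 0.98 ± 0.26 and Me1 by 0.81 ± 0.23 (adjusted p = 0.0379 and 0.0455, edgeR), calls that ended in 9 and 10 of the 13 fits with 1 library left out, with adjusted p of up to 0.141 and 0.148. Angptl8 itself, as given above, did not pass in either comparison.

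Glucocorticoids also induce Angptl4. Of 7 genes listed as their targets, 3 rose in depleted livers and 2 rose and 1 fell after hepatectomy. The list includes Nr3c1, the gene of the receptor itself. At an unadjusted p under 0.05, 3 were higher and 1 lower in depleted livers and 5 higher and 1 lower after hepatectomy (edgeR). DESeq2 called 3 higher and 0 lower in depleted livers, and 4 higher and 1 lower after hepatectomy. The shares of all genes at those thresholds are given with the fasting list. Fkbp5, the receptor's co-chaperone, rose by 2.79 ± 0.40 in depleted livers and by 2.74 ± 0.42 after hepatectomy (adjusted p = 0.000231 and 0.00353, edgeR), whichever library was left out. Tsc22d3 rose by 1.32 ± 0.39 and Zbtb16 by 1.94 ± 0.65 in depleted livers, and Zbtb16 by 2.60 ± 0.68 after hepatectomy, where Nr3c1, the glucocorticoid receptor, fell by 0.72 ± 0.16 (adjusted p = 0.0206, 0.0369, 0.0364 and 0.0174, edgeR). Of these calls, that of Tsc22d3 ended without depleted 2 or 3, those of Zbtb16 in 7 and 8 of 13 cases, and that of Nr3c1 without any 1 of the 3 hepatectomised livers (adjusted p of up to 0.102, 0.201, 0.195 and 0.0662). Without depleted 2 or depleted 3, 1 of the 7 was called higher in depleted livers. Beside this, the Angptl4 difference was -0.13 ± 0.23 in depleted livers and 1.57 ± 0.24 after hepatectomy. The part of the hormone in the Angptl4 level was not tested.

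Of 5 genes reported as receptors for angiopoietin-like proteins, Pirb rose from 4.66 to 54.9 CPM in depleted livers (3.56 ± 0.46 on the log2 scale, adjusted p = 0.000119, edgeR). It encodes an inhibitory receptor of myeloid cells, and 9 of 12 monocyte and macrophage markers were called higher in depleted livers. The part of these cells in the Pirb level was not tested. Itga5, an integrin chain, rose by 0.92 ± 0.20 after hepatectomy (adjusted p = 0.0163, edgeR) and did not pass without hepatectomy 1 or 2 (adjusted p of up to 0.0684). Itgb1, Tek and Tie1 passed in neither comparison with control. In females alone, none of the hepatectomy calls named for the 5 lists passed, with 1 hepatectomised female against 3 controls. Of the depletion calls named, those of Vldlr, Apoe, Apoc1, Scd1, Srebf1, Tsc22d3 and Zbtb16 did not pass in females alone, where 5 of the 17 fasting genes, 2 of the 15 lipogenic genes and 1 of the 7 glucocorticoid targets were still called. Those of Sorl1, Ehhadh, Ppara, Cpt1a, Irs1, Me1, Fkbp5 and Pirb passed in every alternative run.

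Likeness of pattern was ranked over the 13 livers by Spearman's rho among 10547 genes. The livers fall into 3 groups and share a scaling, so these values only describe. The closest genes to Angptl2 were Reln and Bmp5 (rho 0.96 for each), of which Reln is among the stellate markers. Angptl6 ran closest to Stk40 and Pth1r (0.96 and 0.95). Gpihbp1 ran closest to Stab1, an endothelial scavenger receptor among the markers used above, and to Mylip (0.96 for each). Angptl4 was nearest to Map3k10 and Tmed2 (0.96 and 0.93), and Angptl8 to Creb1 and Mid1ip1 (0.84 for each). Lpl was nearest to Ifngr2 and Ikbke (0.92 and 0.91), Lipc to Shmt1 and Slc35e2 (0.95 and 0.94), and Lipg to Sco1 and Ggnbp1 (0.95 and 0.89). Angptl1, at its few reads, was nearest to Hus1 and Gpatch2 (0.90 and 0.88). Within the 9, the highest pairs were Angptl2 with Angptl6 (0.85), Lipc with Lipg (0.80) and Angptl6 with Lipc (0.80), and the lowest were Angptl1 with Angptl4 (-0.69) and Angptl2 with Lpl (-0.64).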

How the data were processed

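Messenger RNA of 13 whole mouse livers was sequenced with a stranded kit, per the labels' protocols. The submitters' processing notes name STAR 2.7.1a, SAMtools 1.15.1 and featureCounts 1.6.4 and the build mm10. Their options, the strand setting and the treatment of reads with several matches are not given in the sources used here. The authors deposited raw counts, 35360991 to 51008737 per library, for 22048 genes. Of the gene IDs, 21741 matched a symbol and 307 did not. Exon coordinates of 99.94% of 21818 IDs overlapped the same gene in GENCODE M21 (GRCm38). Groups and sex came from the labels. They do not state that each liver is a separate animal, so p-values measure the spread between these samples. The labels name no batch, and any that ran along with the groups cannot be told apart.

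From the counts, CPM was computed with edgeR's TMM factors, and TPM from the gene lengths in the same table. The members and the gene lists were chosen with earlier results of these data known. Groups were compared with edgeR 4.0.16 in R 4.3.3 (quasi-likelihood F-test with robust estimation, group and sex as terms, all 13 libraries, filterByExpr on the groups, 13831 genes kept), with Benjamini-Hochberg adjustment over all genes and a threshold of 0.05. Sex was tested in the 6 controls (13005 genes) and as the sex term over all 13 livers. Of each list, the 4 called genes with the largest log2 difference in each comparison with control were named. Of genes like a member, the 2 with the highest rho (log2 CPM, prior count 2) were named. Alternatives were DESeq2 1.42.0, limma-voom (limma 3.58.1), other scalings, filters and terms, a replicate block, single libraries left out, and, added after the data were seen, control 6, depleted 4 and hepatectomy 2 left out together. The fit was tested on simulated data. Promoter windows came from RefSeq (GRCm38.p6), which held 5 of the 9 members. Reads carry no molecular identifiers, so the floor of 3 counts covers counting error only. No 2 libraries of a group agreed within sampling noise.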

Additional observations from a re-analysis of the deposited data

Results flagged for a closer look

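Among 18 sets of values (9 genes in the 6 controls and in the 4 depleted livers, on the log2 scale), 2 held a liver whose distance to its nearest neighbour was large for the range of its group. Chance alone gives about 0.9 such cases in 18. Angptl2 in controls was lowest in control 6 (9.81 CPM, against 22.4 to 27.8 CPM in the other 5), a gap of 0.794 of the whole range. Gpihbp1 in depleted livers was lowest in depleted 4 (18.1 CPM, against 28.7 to 29.9 CPM in the other 3), a gap of 0.917 of the whole range. Control 6 was the lowest of the controls in all 8 cell type marker lists, with 223.7 CPM of stellate and 129.5 CPM of endothelial markers. Depleted 4 had 308 CPM of endothelial markers, the lowest of the depleted livers. Depleted 4 was at the same time the highest of the depleted livers for stellate (54.8 CPM), Kupffer (1302 CPM) and mesothelial and portal fibroblast markers (37.5 CPM). The part of cell content in these values was not tested.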

How the results depend on the processing

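The number of members called between depleted and control livers was 5 in every alternative except the 1 without control 6, depleted 4 and hepatectomy 2, where Gpihbp1 made it 6. Hepatectomy calls were the least firm. All genes called there numbered 1164, and 90 in females alone, 2192 scaled by library size alone, 1939 with DESeq2, 628 with the replicate block, 751 without the 3 livers, and 483 to 1458 with 1 library left out. Members called there were 2, and 1 with no sex term, 0 in females alone, 1 with the block, and 1 to 2 with 1 library left out. For depleted against control all genes called numbered 4692, and 2726 in females alone and 2960 to 4928 with 1 library left out. For depleted against hepatectomised livers they numbered 3236, and 2105 with only those groups, 1263 in females alone and 1709 to 3850 with 1 library left out. Members called there were 4, and 6 with DESeq2 (Angptl8 and Lpl gained), 5 with no sex term, 5 with the block, 3 in females alone, 7 without the 3 livers and 3 to 5 with 1 library left out. The sex tests called 96 genes in controls (445 with DESeq2, 63 without control 6, 32 to 200 with 1 library left out) and 142 over all livers (410 with DESeq2, 84 to 269 with 1 library left out), and among members 0 and, with DESeq2 over all livers, 1. Scaling by library size alone moved the median of all genes to -0.24 for hepatectomy (626 higher, 1566 lower, against 838 and 326), to 0.27 for depleted against hepatectomised livers (3102 and 610, against 1837 and 1399) and to 0.08 for depletion (2884 and 1471, against 2614 and 2078).

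Some uncalled differences near 0 changed sign, and the cause was not tested. Angptl1 in depleted livers was -0.37 with the replicate block, and Angptl4 there ran from -0.27 to 0.032 with 1 library left out (0.032 without depleted 1). For sex in controls, Lpl was -0.064 scaled by library size alone and -0.046 without control 6. With 1 control left out, Lpl ran from -0.092 to 0.16, Angptl8 from -0.34 to 0.77 and Gpihbp1 from -0.62 to 0.084, the last without control 6. For sex over all livers, with 1 library left out, Gpihbp1 ran from -0.36 to 0.0058, Angptl8 from -0.92 to 0.14 and Lpl from -0.27 to 0.035. Without the 3 livers, Gpihbp1 was 0.11 and Lpl 0.0016 there. The labels give the replicate numbers no shared animal, litter or day. With sex taken out, same-numbered livers correlated at 0.12, -0.05 and 0.16 on average in the 3 pairs of groups, and a liver correlated best with its own number in 1 of 4, 0 of 3 and 2 of 3 cases. With sex left in, the 3 control and hepatectomy pairs, all of matched sex, correlated at 0.11 to 0.52. The numbers were therefore not taken as pairs. The block gave 3889 calls for depletion and 3166 for depleted against hepatectomised livers, with 5 members called in each. It ended the Lipc call after hepatectomy, given above, and the calls of Apoc1, Scd1, Srebf1 and Zbtb16 in depletion and of Lmf2, Pdk4, Plin5, Srebf1, Me1 and Zbtb16 in hepatectomy. With no sex term the calls of Vldlr, Scd1 and Zbtb16 in depletion and of Sort1 in hepatectomy ended, and scaled by library size alone those of Apoc2, Lmf2 and Itga5 in hepatectomy. Without the 3 livers that stood apart, those of Acot1 in depletion and of Apoc2, Sort1, Pdk4, Srebf1 and Itga5 in hepatectomy ended. Depth limits Angptl1 most, at 0 to 30 reads per liver.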
